A study of Mus musculus with 2 samples.

Results

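Replication-dependent histone genes were examined through 497 CpGs of the 1790826 in the methylation table, each lying in a gene whose mouse symbol starts with Hist1h, Hist2h, Hist3h or Hist4h, or within 500 bp of such a gene. Methylation was measured by reduced-representation bisulfite sequencing (RRBS), in which DNA is cut with restriction enzymes, a size range of fragments is kept and bisulfite treatment leaves methylated cytosines readable as cytosine. Mouse embryonic fibroblasts (MEFs) of 2 genotypes were compared, with 1 library each and no replicates: Dnmt1+/+ MEFs and Dnmt1-/- MEFs, the latter homozygous for a hypomorphic allele of Dnmt1 (one of reduced function), and both homozygous null for trp53, which encodes p53. Neither the embryos' age nor the number of embryos or clones behind each line is given in the sources used here, and no agent was applied. A percentage from bulk DNA does not tell fewer methylated cells from fewer methylated alleles per cell. The table holds methylation alone, so the fibroblast label could not be checked against expressed markers.

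Replication-dependent histone genes supply the core histones H2A, H2B, H3 and H4, which form the nucleosome, and the linker histone H1, which binds the DNA between nucleosomes. They lie in clusters, are transcribed mainly in S phase with the coactivator Npat, usually lack introns, and make mRNAs that end in a stem-loop bound by Slbp instead of a poly(A) tail. A few cluster members are made in male germ cells: Hist1h1t encodes the testis linker histone H1t, and Hist1h2aa and Hist1h2ba encode the testis core histones TH2A and TH2B. Dnmt1 restores CpG methylation on newly made DNA, so that the comparison shows how much of it stood at these genes with Dnmt1 and with the impaired allele.

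The GENCODE vM1 annotation of the NCBIM37 (mm9) build held 70 genes that met the rule, of which 67 were protein-coding and 3 were pseudogenes. They lay in 6 clusters or single positions. Chromosome 13 held 56 of these genes, 24 of them between 21807632 and 22135545 and 31 between 23622919 and 24026720, and chromosome 3 held 10. Of the 5040 CGs in the windows, 9.86% were measured. A measured CpG was assigned to 38 genes, while 28 genes had none in their window. CpGs in CCGG or TCGA, which are cut sites of enzymes used for RRBS and made up 156 of the 497, are treated separately because they read near 50% at genes whose other CpGs were close to 0. The remaining 341 CpGs, called other CpGs here, covered 37 genes, and 27 genes had at least 5 of them. Their median depth was 36 calls in Dnmt1+/+ (range 12 to 152) and 24 in Dnmt1-/- (range 10 to 138), so that 0 methylated calls at the median depth allowed up to 8.33% and 12.5% methylation (3 calls of the depth). Intervals in the text are 95% Wilson intervals on pooled calls, and they and the limits for 0 calls cover counting error only, since reads amplified by PCR carried no molecular identifiers and may repeat 1 molecule. Depth also stepped between neighbours. At Hist3h2a the CpG 105 bp from the coding start, called lower, had 116 and 126 calls (10 and 2 methylated), and that at 121 bp had 58 and 63. Molecules may have been counted more than once at such CpGs, which was not tested. Intervals, limits and adjusted p would then be too small there.

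The stretches below carried the CpGs on which the contrast among histone genes rests, and capitals mark the measured CpGs outside CCGG and TCGA. They were read from NCBIM37 and are given 5′ to 3′ on the gene's strand. The first 2 lie in the coding sequence of the testis pair, Hist1h2ba at chr13:24025859-24026022 (minus strand) and Hist1h2aa at chr13:24026426-24026548 (plus strand), and both were highly methylated in Dnmt1+/+ MEFs.
Hist1h2ba coding: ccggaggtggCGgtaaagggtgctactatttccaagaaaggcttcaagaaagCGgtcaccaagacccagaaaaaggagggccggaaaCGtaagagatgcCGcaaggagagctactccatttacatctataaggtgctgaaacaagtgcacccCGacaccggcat
Hist1h2aa coding: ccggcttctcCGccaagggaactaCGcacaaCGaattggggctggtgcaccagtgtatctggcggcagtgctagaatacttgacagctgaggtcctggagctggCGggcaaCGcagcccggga
The next pair comes from Hist1h1a, the gene of a linker histone subtype, at chr13:23855881-23855973 in its coding sequence and at chr13:23856722-23856785 beyond its annotated end, both on the plus strand. They are shown because all 6 CpGs were called lower in Dnmt1-/-, from a high level in the downstream stretch and from a mixed one in the coding stretch. Of the other CpGs of the whole table, 44.2% were called lower.
Hist1h1a coding: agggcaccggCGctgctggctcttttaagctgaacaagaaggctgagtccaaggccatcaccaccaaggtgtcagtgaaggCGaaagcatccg
Hist1h1a downstream: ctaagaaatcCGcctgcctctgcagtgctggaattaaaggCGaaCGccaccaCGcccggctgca
The following 2 stretches are from Hist1h1e, another linker histone gene, which had the most other CpGs of its class. They cover the first part of its coding sequence at chr13:23714191-23714366 and the 250 bases before its start at chr13:23714372-23714621, on the minus strand, and stood near 0 in both libraries.
Hist1h1e coding: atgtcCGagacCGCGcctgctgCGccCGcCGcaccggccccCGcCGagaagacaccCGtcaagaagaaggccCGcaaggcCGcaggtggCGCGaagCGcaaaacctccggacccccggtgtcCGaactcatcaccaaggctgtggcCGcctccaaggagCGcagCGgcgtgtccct
Hist1h1e upstream: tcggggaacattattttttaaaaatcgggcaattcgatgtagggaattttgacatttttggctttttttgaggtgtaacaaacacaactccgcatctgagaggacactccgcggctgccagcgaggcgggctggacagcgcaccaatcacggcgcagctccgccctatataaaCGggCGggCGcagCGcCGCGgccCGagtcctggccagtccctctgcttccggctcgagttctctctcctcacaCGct
The 250 bases before the start of Hist2h2aa1, an H2A gene, lie at chr3:96049211-96049460 on the plus strand, and those of Hist1h4a, an H4 gene, at chr13:23853100-23853349 on the minus strand. These were the densest measured upstream stretches among the class examples, and they too were almost unmethylated.
Hist2h2aa1 upstream: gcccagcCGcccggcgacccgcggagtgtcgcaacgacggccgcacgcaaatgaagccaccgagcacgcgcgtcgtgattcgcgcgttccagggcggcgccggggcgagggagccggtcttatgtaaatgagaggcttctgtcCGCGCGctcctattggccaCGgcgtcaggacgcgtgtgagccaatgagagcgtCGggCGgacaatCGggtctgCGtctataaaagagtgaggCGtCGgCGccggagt
Hist1h4a upstream: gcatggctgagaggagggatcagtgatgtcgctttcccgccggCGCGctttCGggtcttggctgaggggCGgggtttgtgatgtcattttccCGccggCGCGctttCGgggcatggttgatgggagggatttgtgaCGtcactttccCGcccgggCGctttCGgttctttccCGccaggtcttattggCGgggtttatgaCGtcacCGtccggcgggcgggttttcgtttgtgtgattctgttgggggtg

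Most histone gene CpGs were unmethylated in both libraries, while the pair of testis variants Hist1h2aa and Hist1h2ba was methylated in both. Over the 341 other CpGs, mean methylation was 8.43% in Dnmt1+/+ and 3.30% in Dnmt1-/-. The same means over the 996064 other CpGs of the whole table were 45.0% and 15.1%. In Dnmt1+/+, 315 of the 341 CpGs (92.4%) were at 20% or less and 17 (4.99%) were at 80% or more, against 48.2% and 37.9% of the whole table. The calls of each CpG were also compared between the libraries (Fisher's exact test, two-sided), adjusted by the Benjamini-Hochberg method over all CpGs of the table, with a threshold of 0.05. This test compares 2 libraries and not 2 genotypes. It called 21 of the 341 CpGs (6.16%) lower in Dnmt1-/-, where 44.2% of other CpGs in the whole table were lower. It called 0 of the 341 higher, where 0.635% of the table's other CpGs were higher. Without adjustment, 26 of the histone CpGs were lower and 0 higher at a p under 0.05. With CCGG and TCGA included, 38 of the 497 CpGs were lower (43.7% of the table's CpGs were) and 2 were higher (0.462%).

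The testis variants and the other histone genes were read side by side in each library. Hist1h1t, the testis linker histone gene at chromosome 13, 23787680 to 23788588, had 0 measured CpGs in its window, and its nearest measured CpG was 825 bp from the gene, so the values for testis variants come from Hist1h2aa and Hist1h2ba. Their 10 other CpGs stood at a mean of 82.5% in Dnmt1+/+ (82.3% of 396 calls, interval 78.3 to 85.8%) and 54.7% in Dnmt1-/- (55.4% of 276 calls, interval 49.5 to 61.2%). In the remaining histone genes the 331 other CpGs reached 6.19% in Dnmt1+/+ (4.98% of 15292 calls, interval 4.64 to 5.33%) and 1.75% in Dnmt1-/- (1.65% of 11567 calls, interval 1.43 to 1.90%). The pooled intervals of the 2 sets did not overlap in either library. Dnmt1-/- MEFs thus had 66.4% of the Dnmt1+/+ level at the testis pair and 28.3% of it at the other histone genes. With CCGG and TCGA included this order turned, to 72.4% and 79.3%. Over the table's other CpGs the share was 33.6%. The 28.3% joins unlike CpGs. In Dnmt1+/+, 315 of the 331 were at 20% or less and averaged 2.69% there and 1.19% in Dnmt1-/-. Another 10 were at 80% or more and averaged 93.7% and 14.8%. Called lower were 5 of the 10 CpGs of the pair and 16 of the 331 CpGs of the other genes (4.83%), against the same 44.2% of the table, so that the share at the pair was near that of the table. All 10 CpGs of the pair had a lower value in Dnmt1-/-, and 9 of them were still above 30%. In the same library 3 of the 331 CpGs of the other histone genes were above 20%, and 0 were above 40%. The pair is a single locus, so the contrast rests on 1 place in the genome and was not tested across genes.

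**Figure D1:**
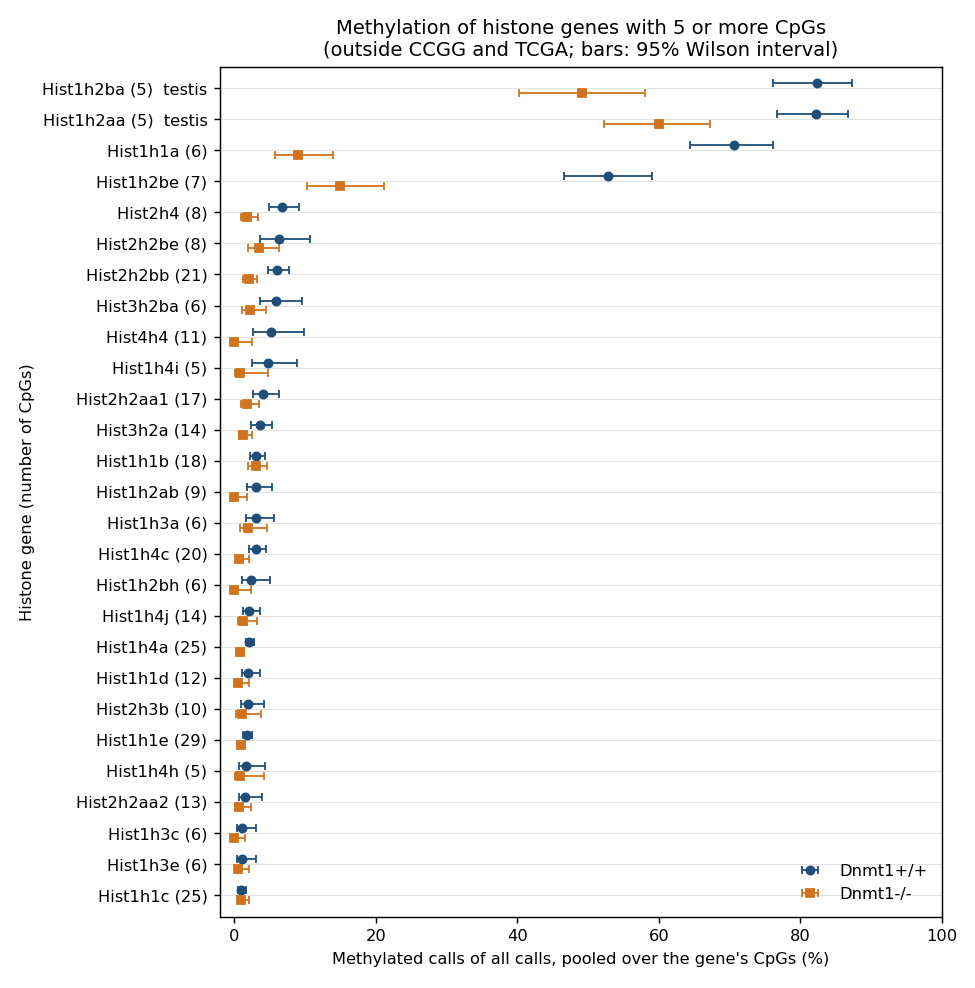
Methylated calls as a percentage of all calls (x axis) for each of the 27 histone genes with at least 5 CpGs outside CCGG and TCGA (y axis, number of CpGs in brackets), with circles for Dnmt1+/+, squares for Dnmt1-/- and bars for 95% Wilson intervals. Hist1h2aa and Hist1h2ba lie near 82% in Dnmt1+/+ and at 60% and 49.1% in Dnmt1-/-, Hist1h1a and Hist1h2be are high in Dnmt1+/+ alone, and the other genes lie at the left edge in both libraries.

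Hist1h2ba and Hist1h2aa stand head to head on chromosome 13, at 24025637 to 24026025 on the minus strand and 24026331 to 24026720 on the plus strand. Their annotated starts are 306 bp apart. Of the 8 CGs between the starts 0 were measured, so the shared upstream stretch has no value and the measured CpGs lie in the coding sequences printed above. At Hist1h2ba, the 5 other CpGs lay between 14 and 156 bp from the coding start. In order from the start they read 89.5%, 97.1%, 82.4%, 100% and 44.4% in Dnmt1+/+ and 54.5%, 63.6%, 62.5%, 50% and 16.7% in Dnmt1-/-. The CpG farthest from the start was thus the lowest in both libraries. At Hist1h2aa, the 5 other CpGs lay between 105 and 206 bp from the coding start and read 90.9%, 100%, 93.2%, 61.4% and 65.9% in Dnmt1+/+. The same CpGs read 87.5%, 78.1%, 37.5%, 40.6% and 56.2% in Dnmt1-/-, which left the CpG at 105 bp almost level between the libraries and the CpG at 126 bp with the widest gap. CpGs of a gene were often read from the same fragments and do not count as separate samples.

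The adjusted p of the Fisher's exact test was under the threshold at 3 CpGs of Hist1h2ba, those at 14, 56 and 103 bp, with the largest difference at 103 bp (100% of 33 calls against 50% of 24 calls, adjusted p = 2.11e-05). At Hist1h2aa it was under the threshold at 119 and 126 bp, where the larger difference was 93.2% of 44 calls against 37.5% of 32 calls (Fisher's exact test, adjusted p = 2.11e-06). The gene means fell from 82.7% to 49.5% at Hist1h2ba and from 82.3% to 60% at Hist1h2aa, and the pooled intervals of the 2 libraries did not overlap at either gene. In Dnmt1-/-, the interval of Hist1h2ba (40.2 to 58.1%) overlapped that of Hist1h2aa (52.3 to 67.3%), so the order of the pair was not resolved at this depth. The 6 CCGG or TCGA CpGs of the pair averaged 90.9% in Dnmt1+/+ and 74.1% in Dnmt1-/-.

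**Figure D2:**
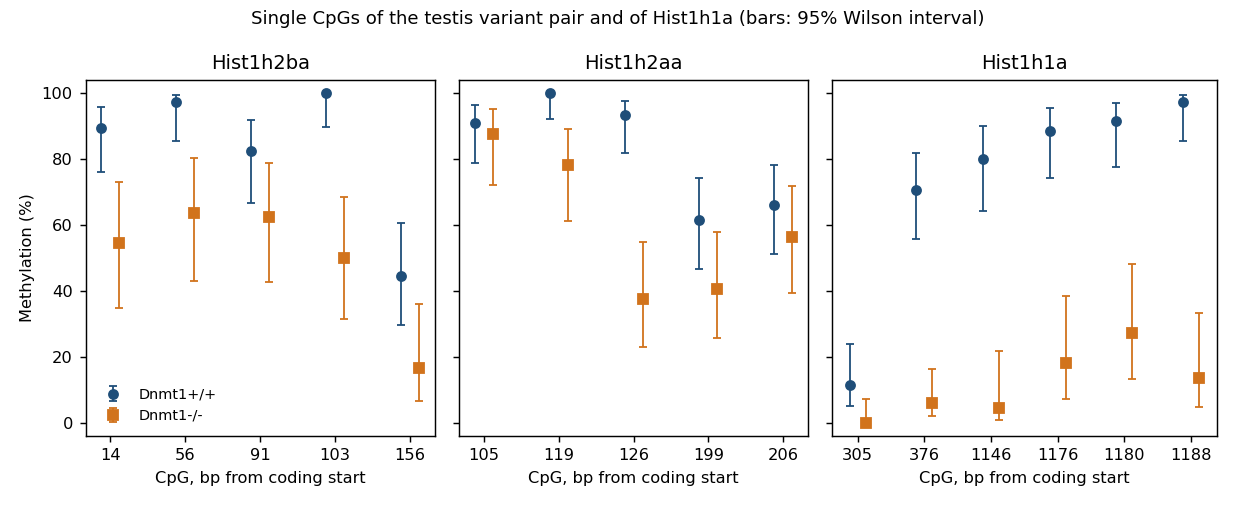
Methylation in percent (y axis) of each CpG outside CCGG and TCGA in Hist1h2ba, Hist1h2aa and Hist1h1a, in order of its distance in bp from the coding start (x axis, not to scale), with circles for Dnmt1+/+, squares for Dnmt1-/- and bars for 95% Wilson intervals. At the testis pair 9 of 10 CpGs stay above 30% in Dnmt1-/-, whereas the 6 CpGs of Hist1h1a lie between 0 and 27.3% there.

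To compare CpGs of a like starting level, those at 80% or more in Dnmt1+/+ were read on their own. The testis pair had 7 of these, which averaged 93.3% in Dnmt1+/+ and 62.0% in Dnmt1-/- (lowest 37.5%, highest 87.5%), and 5 of the 7 were called lower. The other histone genes had 10, in 4 genes, which averaged 93.7% in Dnmt1+/+ and 14.8% in Dnmt1-/- (lowest 0, highest 34.8%), and 10 of the 10 were called lower. The lowest of the 7 CpGs of the pair (12 of 32 calls, interval 22.9 to 54.8%) and the highest of those 10 (8 of 23 calls, interval 18.8 to 55.1%) could not be told apart at this depth. In the whole table the 377268 such CpGs averaged 32.0% in Dnmt1-/- (median 26.3%, quartiles 9.09 and 50%), and 88.2% of them were called lower.

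**Figure D3:**
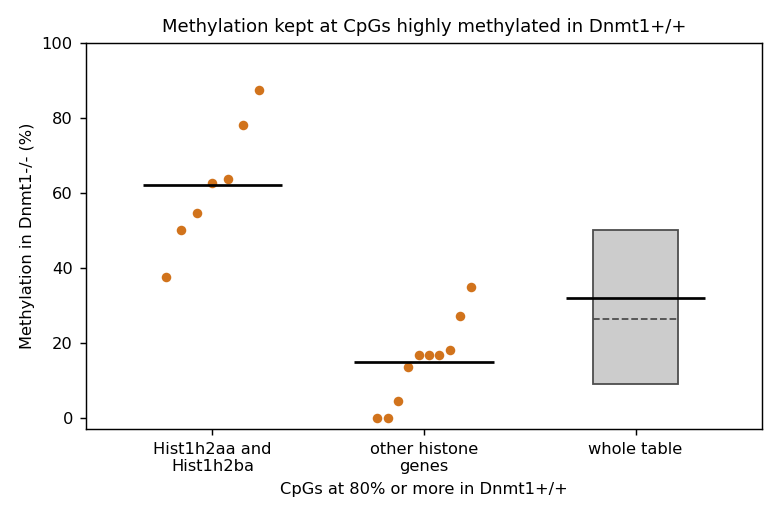
Methylation in Dnmt1-/- (y axis, percent) of CpGs outside CCGG and TCGA that were at 80% or more in Dnmt1+/+, with a point for each histone gene CpG and a solid line at each mean. The grey box spans the quartiles of the 377268 such CpGs of the whole table, with their median dashed. The 7 CpGs of the testis pair lie from 37.5 to 87.5% and the 10 of other histone genes from 0 to 34.8%.

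The sequence around the pair was sparsely measured. Within 50 kb to either side, 11 other CpGs outside any histone window were measured, the nearest 2992 bp away. Of these, 8 were at 80% or more in Dnmt1+/+, with a mean of 95.6%, and those 8 averaged 19.5% in Dnmt1-/- (0 to 50%). Their Dnmt1+/+ values were as high as those of the pair, and their Dnmt1-/- mean was lower. Whether this separates the pair from its surroundings was not tested, since few CpGs were measured there. Some of them lie close together with equal depths and may share reads. Read in the same way, within 500 bp of the annotated gene start, 25 histone genes and 11943 other protein-coding genes had at least 5 other CpGs. A mean of 50% or more in Dnmt1+/+ was found at 2 of the histone genes, which were Hist1h2ba and Hist1h2aa, and at 525 (4.40%) of the other genes. Those 525 had a median of 25.6% in Dnmt1-/- (quartiles 12.2 and 43.4%). In this window, which takes in CpGs of the neighbour as well, Hist1h2ba stood at 56.3% and Hist1h2aa at 54.7% in Dnmt1-/-. A share of 9.52% of the 525 genes was at or above the former and 10.9% at or above the latter.

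Among the other histone genes, 25 had at least 5 other CpGs, and 22 of those had a mean under 10% in Dnmt1+/+, from 0.893% to 9.83% (median 2.21%). In Dnmt1-/- the same 22 lay between 0 and 3.81% (median 0.907%). The mean over CpGs was lower in Dnmt1-/- at 22 of these 22 genes, but the pooled intervals of the libraries were separate at 4 of them. On pooled calls Hist1h1c went the other way, at 0.965% in Dnmt1+/+ and 1.025% in Dnmt1-/-. Settings on repeats and depth were run for single genes only where these were named by rank. Without CpGs in repeated sequence the direction turned at 1 of those, Hist2h3b, to 1.65% and 1.96% over 6 CpGs. Of the 273 CpGs of the 22 genes, 125 read 0 in Dnmt1+/+ and 200 read 0 in Dnmt1-/-, where depth was lower, and 3 were called lower. In the whole table, the other CpGs at 20% or less in Dnmt1+/+ averaged 3.06% there and 2.06% in Dnmt1-/-, and 2.83% of them were called lower, so a small fall from a low level was not particular to these genes. CpGs above 20% numbered 2 in Dnmt1+/+ and 0 in Dnmt1-/-. The genes with the most CpGs in the classes H1, H4, H2A and H3 are given as examples. That of H2B, Hist2h2bb, averaged 10.5% in Dnmt1+/+, was not among the 22 and is described below. Hist1h1e, a linker histone gene with 29 other CpGs, read 1.71% and 0.906% in Dnmt1+/+ and Dnmt1-/-, respectively. Hist1h4a, an H4 gene with 25, read 2.14% and 0.875%. Hist2h2aa1, an H2A gene with 17, read 3.62% and 1.48%, and Hist2h3b, an H3 gene with 10, read 1.96% and 1.18%. In the coding stretch of Hist1h1e printed above, 18 CpGs averaged 2.01% and 0.796%, and the 12 upstream CpGs of Hist2h2aa1 averaged 1.19% and 0.779%. The 16 upstream CpGs of Hist1h4a averaged 1.97% and 0.951%. The 8 upstream CpGs of Hist1h1e went the other way, at 0.504% and 1.49%.

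Next to these low genes, Hist1h1a and Hist1h2be lost most of a high methylation level. Together they held 11 of the 16 CpGs called lower among the other histone genes. Hist1h1a lies at chromosome 13, 23855537 to 23856283, and its 6 other CpGs stood at a mean of 73.2% in Dnmt1+/+ and 11.6% in Dnmt1-/-, with 6 of 6 called lower. The 2 CpGs in its coding sequence differed between themselves. At 305 bp from the coding start the CpG read 11.4% in Dnmt1+/+ and 0 in Dnmt1-/-, and at 376 bp it read 70.5% and 6.0%. The 4 CpGs beyond the gene's end, between 1146 and 1188 bp from the coding start, read 80%, 88.6%, 91.4% and 97.1% in Dnmt1+/+ and 4.55%, 18.2%, 27.3% and 13.6% in Dnmt1-/-. These 4 lie outside the annotated gene and carry most of its mean, and whether they lie in an interspersed repeat was not checked here. The last of them showed one of the 5 largest differences among called histone CpGs (35 and 22 calls, Fisher's exact test, adjusted p = 6.69e-10). Hist1h1a was 1 of 5 linker histone genes with other CpGs, and the means of the remaining ones lay between 1.14 and 3.09% in Dnmt1+/+.

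Hist1h2be encodes an H2B protein, and its annotated gene, on the minus strand at 23675611 to 23712993 of chromosome 13, includes a long transcript with introns. All 7 of its other CpGs lay in introns. The 2 CpGs within 500 bp of the coding start read 0 and 12.1% in Dnmt1+/+ and 0 and 0 in Dnmt1-/-. The 5 CpGs between 5447 and 6823 bp before the coding start read 82.1%, 100%, 100%, 100% and 65.5% in Dnmt1+/+, in order of distance. In Dnmt1-/- they read 16.7%, 16.7%, 16.7%, 0 and 27.4%, and 5 of 5 were called lower. In Dnmt1+/+, 4 of the 5 were at 80% or more, a level at which 88.2% of the table's other CpGs were called lower. The high mean of this gene therefore belongs to an intron kilobases from its coding sequence. Hist1h2bc, an H2B gene, had 1 other CpG, in an intron 3754 bp after the coding start, and none was measured near that start. It read 97.6% of 42 calls in Dnmt1+/+ and 34.8% of 23 calls in Dnmt1-/-.

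The remaining genes named by rank had lower levels. Hist2h2bb, an H2B gene on chromosome 3 with 21 other CpGs, averaged 10.5% and 3.35%. Its 1 called CpG, in an intron 6824 bp after the coding start, read 100% of 30 calls and 0 of 18 calls (Fisher's exact test, adjusted p = 3.06e-12), and the other 20 averaged 6.05% and 3.51%. With a depth of at least 20, 12 CpGs of Hist2h2bb were left and the means were 1.98% and 2.08%, so that the direction of its change rests on shallow CpGs. Hist2h4, an H4 gene, averaged 9.83% and 1.54% over 8 CpGs, of which 1 exonic CpG at 1186 bp read 46.9% and 0 (Fisher's exact test, adjusted p = 1.56e-05). The other 7 CpGs of Hist2h4 averaged 4.53% and 1.76%. Hist3h2ba, an H2B gene, averaged 8.77% and 3.81%, and Hist4h4, the single H4 gene on chromosome 6, averaged 5.19% over 154 calls and 0 over 152 calls. At Hist4h4 0 of 152 calls allowed up to 1.97% (3 calls).

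Among the histone genes other than the testis pair, highly methylated CpGs lay away from the coding start. Within 500 bp of the coding start, 290 CpGs averaged 3.15% in Dnmt1+/+ and 1.19% in Dnmt1-/-, and 0 of them were at 80% or more in Dnmt1+/+. Beyond 500 bp, 41 CpGs averaged 27.7% and 5.71%, and these included the 10 CpGs at 80% or more. The 41 CpGs came from 9 genes and were themselves mixed, with a Dnmt1+/+ median of 3.57%. By annotation, 164 CpGs in coding sequence averaged 3.43% and 1.14%, 97 in the upstream flank 2.30% and 1.11%, and 44 in other exon sequence 2.80% and 1.44%. Higher were 10 CpGs in the downstream flank, at 38.4% and 6.36%, and 16 in introns, at 47.2% and 9.80%. With a depth of at least 20, 6 intronic CpGs were left, at 30.3% and 11.1%, and 22 in other exon sequence, at 4.25% and 1.55%. The 10 CpGs of the testis pair lay within 206 bp of the coding start, in coding sequence, where the other histone genes had their low values. At the edge of the window itself, 34 CpGs between 251 and 500 bp from a histone gene averaged 14.6% and 3.12%, and 5 CpGs from there to 750 bp, just outside it, averaged 15.7% and 0.364%.

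**Figure D4:**
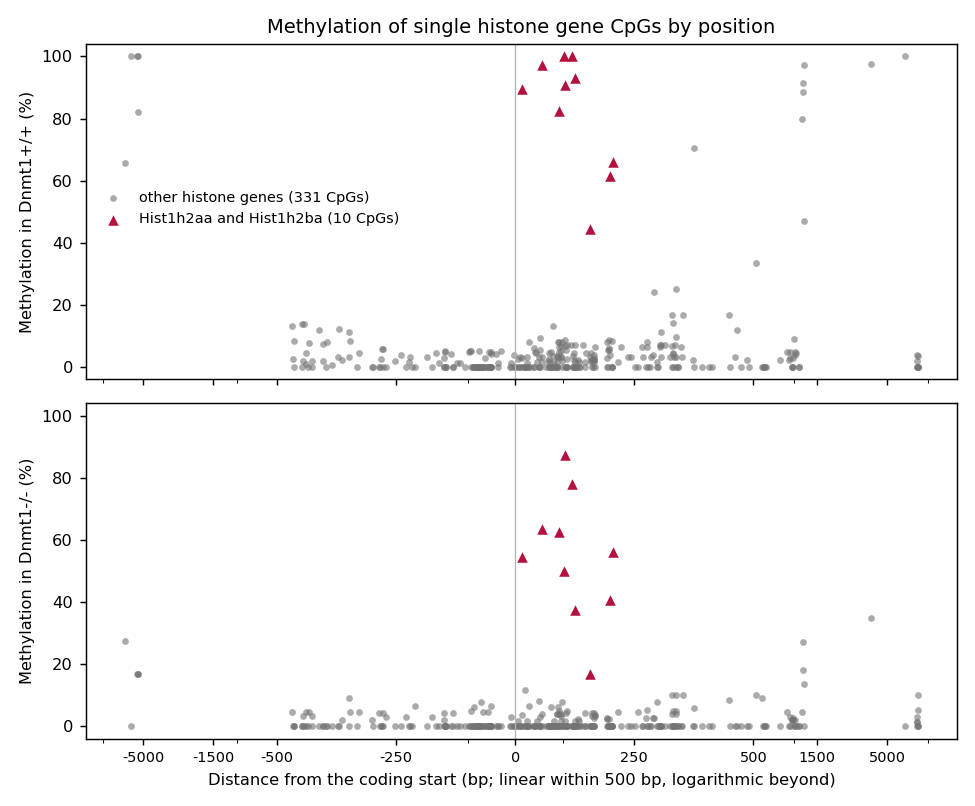
Methylation in percent (y axes) of single histone gene CpGs outside CCGG and TCGA against distance from the coding start in bp (x axis, linear within 500 bp and logarithmic beyond), with Dnmt1+/+ above and Dnmt1-/- below. Triangles mark the 10 CpGs of Hist1h2aa and Hist1h2ba and grey points the 331 CpGs of the other histone genes. In both libraries the triangles lie above the 290 other CpGs within 500 bp, with 1 Dnmt1+/+ point of Hist1h1a at 70.5% among them.

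The 5 histone classes differed mainly through the genes already described. H3 genes averaged 2.44% in Dnmt1+/+ and 1.12% in Dnmt1-/- over 39 CpGs, and H4 genes averaged 3.33% and 0.965% over 88. H1 genes averaged 6.63% and 1.78% over 90 CpGs, where the 6 CpGs called lower are the number held by Hist1h1a. H2A genes averaged 9.37% and 5.95% over 59 CpGs, and 2.62% and 0.948% over the 54 without the testis variant. H2B genes averaged 20.6% and 7.48% over 65 CpGs, and 15.4% and 3.98% over the 60 without it. By place in the genome, the chromosome 13 cluster at 23622919 to 24026720, which holds the pair, Hist1h1a and Hist1h2be, averaged 11.8% and 4.69% over 182 CpGs. The other chromosome 13 cluster averaged 2.97% and 1.75% over 45, the chromosome 3 cluster 5.71% and 1.92% over 80, and the chromosome 11 genes 3.36% and 1.76% over 23.

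CCGG and TCGA CpGs gave a different level at the low genes. At the 22 genes under 10%, the 103 CpGs of this kind stood at a mean of 53.5% in Dnmt1+/+ and 52.1% in Dnmt1-/-, although neighbouring CpGs of the same genes were near 0. These were also the sites of the 2 histone CpGs called higher, 1 in the upstream flank of Hist1h4h (23.1% and 59.1%) and 1 in the downstream flank of Hist1h1e (18.6% and 52.2%), which were chosen after their values were seen. MspI cuts at CCGG and TaqI at TCGA, and what sets the level of these CpGs was not tested. They are left out of the means above for that reason. A total of 55 other CpGs lay in a 51-base sequence that occurs more than once in the genome, where reads of near-identical histone genes may have been placed at the wrong copy. All 10 other CpGs of the pair were in sequence that occurs once.

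The sequence and genes between the histone genes were less uniformly low. Between the first and last histone gene of the clusters and more than 500 bp from any of them, 256 other CpGs stood at a mean of 28.8% in Dnmt1+/+ and 8.22% in Dnmt1-/-, and 79 of them (30.9%) were called lower, below the 44.2% of the table's other CpGs. Of these, 48 were at 80% or more in Dnmt1+/+ and averaged 26.0% in Dnmt1-/-. The annotation placed 10 protein-coding genes between the histone genes, and 6 had an other CpG. Prss16, which encodes a thymus serine protease, averaged 15.9% and 4.39% over 42 CpGs. Pom121l2 averaged 23.0% and 11.5% over 40, and Zfp184, a zinc finger gene, 3.57% and 0.117% over 15.

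The 300 bases from 250 before to 50 after the start were searched on both strands for CCAAT, for TATAAA and for ATTTGCAT, the octamer that Pou2f1 binds, none of which contains another. Of the 67 protein-coding histone genes, 85.1% held CCAAT, 56.7% TATAAA and 22.4% the octamer. The shares were 37.9%, 13.4% and 1.73% of all 22362 protein-coding genes, the histone genes included. The shares differed by class. CCAAT was found in 4 of 13 H4 genes (30.8%) and in all H1, H2A and H2B genes, and the octamer in 7 of 19 H2A and 8 of 18 H2B genes and in 0 of the H1, H3 and H4 genes. Hist1h2aa and Hist1h2ba held all of these motifs, in windows that partly overlap, and Hist1h1t held CCAAT alone. The 3′ stem-loop was searched within 100 bases after the coding end as a stem of 6 base pairs that opens with GG around a loop of 4 bases that starts with TT. It was found in 58 of the 67 histone genes (86.6%). Among all 22362 protein-coding genes it was found in 67 (0.30%), which include those 58. Hist1h2aa held the form most common among histone genes, and Hist1h2ba and Hist1h1t held a form with 1 other loop base, shown here with the stem in capitals.
Hist1h2aa form, in 36 genes: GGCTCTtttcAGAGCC
Hist1h2ba and Hist1h1t form, in 9 genes: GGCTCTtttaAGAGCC
A match to these letters is a description of the sequence and not of a bound factor.

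Genes with related roles outside the clusters were read within 500 bp of their start. Of 11 replication-independent histone genes, such as those for H2A.Z and H3.3, 8 had at least 5 other CpGs, and their means lay between 0.633 and 3.32% in Dnmt1+/+ and between 0.381 and 1.35% in Dnmt1-/-. H3f3b, an H3.3 gene with 2 other CpGs in the window and named after its values were seen, read 85.5% and 6.76%. Of 13 genes for factors of histone gene transcription and mRNA 3′ end processing, such as Npat and Slbp, 11 had at least 5, with means between 0.155 and 2.81% and between 0 and 2.23%. Of 11 germ cell genes for histones, transition proteins and protamines, 3 had at least 5 other CpGs, and each differed between the libraries by more than 10 points. H1fnt, a linker histone gene of spermatids, read 91.4% in Dnmt1+/+ and 8.08% in Dnmt1-/-. Prm1, which encodes a protamine, read 57.2% and 29.1%, and Tnp2, which encodes a transition protein, read 75% and 33.6%. The Dnmt1-/- means of these 3 genes lay below those of Hist1h2aa and Hist1h2ba. Of the genes in the list with fewer CpGs, Hils1, Prm2 and Tnp1 also lay below, at 37.8%, 23.1% and 19.1% in Dnmt1-/-, and H2afb1, an H2A variant gene, lay above, at 91.3% and 75% at its 1 other CpG, with 16 calls in Dnmt1-/-. These last genes were named after their values were seen, and none of the differences was tested.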

How the data were processed

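Genomic DNA of 1 Dnmt1+/+ and 1 Dnmt1-/- MEF library was analysed by RRBS. Quality control, read processing and mapping to mm9 were done by a sequencing provider before deposit. The submitters' processing notes name Bismark, and the conversion rate is not given in the sources used here. The deposited table gives, per CpG, the depth as a count of calls and the methylation level in percent, and the authors kept CpGs with a count of at least 10 in both libraries. Methylated calls were recovered as percent times depth (whole at 100% of CpGs, tolerance 0.001 calls). All 1790826 positions fell on a CG of NCBIM37, from which sequences were read.

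CpGs were assigned to genes of GENCODE vM1 and 500 bp to either side. A CpG in several windows (88 of 497) went to a gene that contains it, then to the one with the nearest coding start. Levels are means over CpGs, with Wilson intervals on pooled calls. With 1 library per genotype no test of genotype is possible. Fisher's exact test per CpG was tested on simulated data: of 5000 CpGs changed from 90% to 40% among 50000 with the real depths, 78.4% were called, and 0.0489% of unchanged CpGs. No p-value was taken over the CpGs of a gene.

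The histone genes and all gene lists were chosen with earlier results of these data known. Hist1h1c, Hist1h2bc and Hist3h2a were named after their values were seen, outside the rule on ranks given next. Named genes followed a rule on ranks: the testis variants, then among other histone genes with at least 5 other CpGs the 5 highest in Dnmt1+/+, the 5 largest falls, the 3 largest rises (0 genes rose), the 3 highest in Dnmt1-/- and the gene with the most CpGs of each class, plus the 5 called CpGs with the largest difference in each direction, the 3 genes with the most CpGs between the histone genes, and listed genes outside the clusters that differed by at least 10 points. Alternatives were all CpGs, a depth of at least 20, pooled calls, leaving out CpGs deeper than the 99th percentile, the gene alone, the coding span with 500 bp, removal of repeated sequence, each gene counted once, an adjusted p under 0.01, a difference of at least 25 points and adjustment over other CpGs alone. Tables and tests used scipy 1.17.1, pandas 2.3.3, numpy 2.4.6 and numba 0.67.0 in python 3.11.15, sequences used samtools 1.23.1 and pysam 0.24.0, and plots used matplotlib 3.10.9.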

Additional observations from a re-analysis of the deposited data

How the results depend on the processing

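With all CpGs, CCGG and TCGA included, the histone genes averaged 24.2% in Dnmt1+/+ and 19.0% in Dnmt1-/-, the genes other than the testis variants 22.2% and 17.6%, and the testis variants 85.7% and 62.0%. The share of the Dnmt1+/+ level found in Dnmt1-/- then was 72.4% at the testis variants and 79.3% at the other genes, the reverse of the order without these sites (66.4% and 28.3%). The classes H1, H2A, H2B, H3 and H4 then averaged 20.5%, 20.4%, 41.7%, 17.5% and 16.8% in Dnmt1+/+ and 16.1%, 18.0%, 28.5%, 15.7% and 15.1% in Dnmt1-/-, and 38 CpGs were called lower and 2 higher. A depth of at least 20 gave 3.80% in Dnmt1-/- for all histone genes, 5.42% in Dnmt1+/+ for the genes other than the testis variants, 8.11% in Dnmt1+/+ for H1, 12.1% and 7.78% for H2A and 16.1% in Dnmt1+/+ for H2B. Over all histone genes, pooled calls gave 6.93% and 2.90%, the gene alone 9.69% and 4.08%, the coding span with 500 bp 5.83% and 2.88%, and removal of repeated sequence 9.63% and 3.76%. For the genes other than the testis variants, Dnmt1+/+ was at 4.98% with pooled calls, 7.76% with each gene counted once, 3.41% with the coding span (1.24% in Dnmt1-/-) and 6.99% without repeated sequence. The cause of each move was not tested, except that settings change which CpGs enter. Removal of the deepest CpGs took out 0 of the 341. The Dnmt1-/- mean was the lower for both sets of genes under each setting run on them, and for the classes under the settings run on them (all CpGs and a depth of at least 20). The testis pair stood above the other genes by 63.5 to 79.1 points in Dnmt1+/+ and 44.4 to 53.8 in Dnmt1-/-. Stricter depth, an adjusted p under 0.01 or a difference of at least 25 points left 16, 17 and 17 CpGs called lower in place of 21. Of 114 values for single genes and places, 71 stayed within the counting interval and 43 moved, 30 of them when CCGG and TCGA were included. Under the coding span Hist1h1a read 40.9% and 3.0% and Hist1h2be 6.06% and 0, since their high CpGs then fell outside. Hist2h4 then read 3.27% and 0.654%. At a depth of at least 20 Hist1h2be read 38.8% and 13.7% over 2 CpGs, and Hist2h3b 2.58% and 0 over 5.

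No paired analysis was possible because there was a single library for either genotype. Depth limits single CpGs: at the lowest depth of 10 calls, intervals are wide and small differences were not detectable. The absence of replicates leaves differences between the libraries and between the genotypes confounded, and they cannot be told apart. Most CGs of these genes were not measured, including those between the starts of the testis pair and all of Hist1h1t.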
